A study of Mus musculus with 2 samples.

Results

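Hypoxia response and glycolysis genes were examined in embryonic mouse lung: the enzymes of the glycolytic path, the carriers and regulators that feed and drain it, the subunits of the hypoxia-inducible factors (HIF) and other known HIF targets. The 39 genes were listed by name, and a gene was taken where the platform annotation gave at least 1 probe set that symbol and no other. This matched 36 of them, out of 19938 genes in all. Gapdh appeared only on probe sets that carry several symbols, no probe set was matched to Gpi1 or Eno1, and these 3 were not analysed here. A gene with several probe sets was read from the one with the highest mean.

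The study compared lungs of wild type mouse embryos with lungs labelled as knockout for both Etv4 and Etv5, at E13.5 in either group. Equal RNA amounts of 3 samples were pooled within a group, and each pool gave 1 Affymetrix array, so the 2 arrays hold no replicates, no spread between embryos can be given and no test was possible. Strain, sex and the deleted parts of the genes are not in the labels, which write CKO, DKO and knockout by turns and name no Cre line. Etv4 was at 7.59 in the wild type pool and 6.96 in the knockout pool, and Etv5 at 11.51 and 11.28; both Etv4 values lay under the median of their array, so the gene is dim here. The lung epithelial markers Nkx2-1 (10.58 and 10.70) and Epcam (10.38 and 10.47) lay well above the array medians of 7.60 and 7.58. The pools also differed in Xist, at 12.34 and 5.74, and Xist is the RNA that silences an X chromosome in female cells. Y-linked genes were read in both pools and were higher in knockout, with Uty at 8.99 and 9.64 (0.64, 1.56-fold), Eif2s3y at 9.90 and 10.44 (0.53) and Kdm5d at 9.05 and 9.58 (0.53).

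Cells that run short of oxygen keep the HIF alpha subunits Hif1a and Epas1, which prolyl hydroxylases of the Egln family otherwise mark for destruction. A kept alpha subunit pairs with Arnt and binds a short DNA core in the control regions of its targets. Those targets include glucose carriers and most glycolytic enzymes, and also genes of mitochondrial clearance, collagen maturation and feedback on HIF itself. The embryonic lung grows at low oxygen tension, and glycolysis supplies growing tissue with both energy and building material.

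The HIF-bound core was searched as ACGTG (the first form) and GCGTG (the second form) on either strand, in RefSeq promoters of build GRCm38.p6 that run from 250 bases before to 50 bases after a start site. Of the 39 listed genes 35 were in that table, and Slc2a3, Epas1, Bnip3l and Ndrg1 were not. The gene's own start was used where the table had it, and otherwise the most upstream start. The stretches before the start site are shown for the 2 enzymes and the 2 other HIF targets with the largest differences, and for Ldha, a classic HIF target that was equal on both arrays and was added after its values were seen. Capitals mark the core on either strand. Where both strands overlap in CACGTG, which is also the E-box, the run counts as 1 place.
Hk2 (chr6:82774455-82774704, minus strand): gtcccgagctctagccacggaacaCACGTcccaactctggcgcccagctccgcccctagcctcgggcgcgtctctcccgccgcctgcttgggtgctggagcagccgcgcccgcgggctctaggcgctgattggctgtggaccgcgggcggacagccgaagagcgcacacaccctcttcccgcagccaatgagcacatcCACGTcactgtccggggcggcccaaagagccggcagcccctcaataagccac
Pfkm (chr15:98092339-98092588, plus strand): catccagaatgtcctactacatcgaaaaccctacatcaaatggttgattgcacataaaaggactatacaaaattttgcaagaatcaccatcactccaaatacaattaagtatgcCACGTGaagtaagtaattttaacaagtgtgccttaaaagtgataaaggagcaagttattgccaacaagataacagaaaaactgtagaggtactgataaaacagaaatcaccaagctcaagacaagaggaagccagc
P4ha2 (chr11:54100674-54100923, plus strand): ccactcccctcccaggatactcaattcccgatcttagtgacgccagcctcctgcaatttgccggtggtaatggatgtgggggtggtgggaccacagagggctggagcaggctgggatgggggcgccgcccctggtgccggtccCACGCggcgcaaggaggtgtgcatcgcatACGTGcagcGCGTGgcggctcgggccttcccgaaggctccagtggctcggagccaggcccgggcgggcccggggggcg
Bnip3 (chr7:138909507-138909756, minus strand): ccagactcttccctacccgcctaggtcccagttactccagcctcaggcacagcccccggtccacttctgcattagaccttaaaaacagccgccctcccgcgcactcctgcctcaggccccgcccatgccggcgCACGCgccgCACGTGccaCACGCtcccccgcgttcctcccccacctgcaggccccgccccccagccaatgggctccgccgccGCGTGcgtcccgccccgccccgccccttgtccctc
Ldha (chr7:46845554-46845803, plus strand): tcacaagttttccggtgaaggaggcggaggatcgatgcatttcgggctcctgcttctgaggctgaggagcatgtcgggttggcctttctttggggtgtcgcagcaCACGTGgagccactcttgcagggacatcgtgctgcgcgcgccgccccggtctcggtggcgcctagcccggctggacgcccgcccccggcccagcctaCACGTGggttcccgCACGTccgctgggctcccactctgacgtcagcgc

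The Hk2 stretch held 2 places, Pfkm 1, P4ha2 3, Bnip3 4 and Ldha 3. Over the whole window, either form of the core was found for 25 of 29 measured members with a promoter (86.2%), against 65.0% of 8846 measured genes and 43.8% of 32851 promoters in the table. The first form alone was found for 18 of the 29 (62.1%), against 26.3% of measured genes and 19.6% of all promoters. By role, the first form was present for 7 of 8 other HIF targets, 3 of 3 carriers, 6 of 13 enzymes, 1 of 3 regulators and 1 of 2 HIF subunits. It was present for 9 of 9 members that were lower in the knockout pool by at least 0.1 (log2) and for 9 of 20 that were not. Among all measured genes the same split gave 25.5% and 26.4%, so the letters did not go with lower values across the array. Ldha, with 5 places in its window, differed by 0.00. Pfkm and P4ha1, among the 9 lower members, were lower by less than 0.1 with equal medians, quantile or loess scaling. P4ha2, also among the 9, counted as measured through its wild type value alone. For Pfkm, 1 of 4 promoters in the table was read. In all, 11 measured members were at least 0.1 lower. Slc2a3, the member with the largest difference, and Ndrg1 had no promoter here, so their cores are unknown. Many members were listed as known HIF targets or as genes of a path that HIF controls. A high share among them is thus no finding, and a match is not a bound site.

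**Figure D1:**
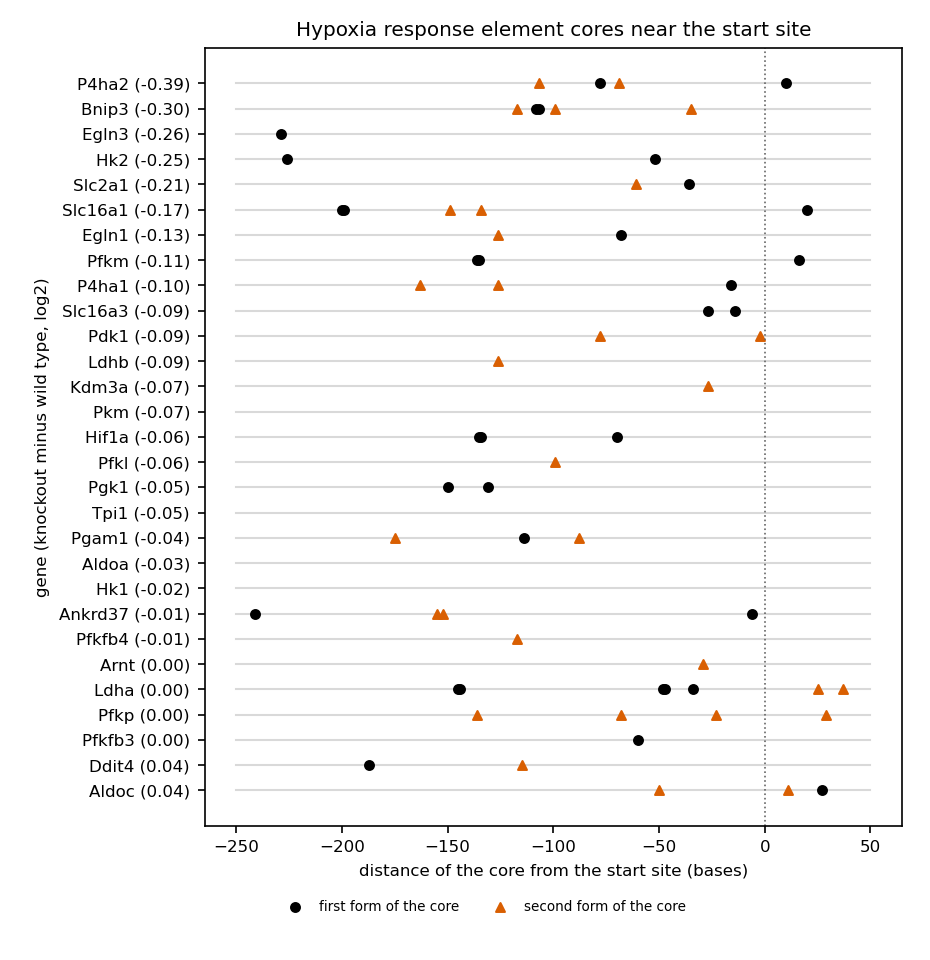
Position of hypoxia response element cores from 250 bases before to 50 after the start site, for the 29 measured members with a RefSeq promoter, ordered by their log2 difference (in brackets). Circles are the first form and triangles the second; the 9 genes in the upper rows, down to P4ha1, each hold a circle, and Pkm, Tpi1, Aldoa and Hk1 hold no mark.

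As a whole, the members had slightly lower values in the knockout pool. Genes whose brighter value did not reach the median of its array were set aside as dim. Of the 36, 33 passed that limit and are called measured here, while Adm, Car9 and Eno2 did not. P4ha2 passed through its wild type value alone, so a lower knockout value was built into its inclusion. Counts of the 33 include it. Of the 33, 26 were lower (47.0% of all 11045 measured genes were lower), 3 were higher (25.7%) and 4 were exactly equal on both arrays (27.3%). With the medians of the arrays made equal, 24 were lower and 9 higher, against 39.3% and 60.7% of measured genes. Differences are log2 values with wild type subtracted from knockout throughout, and the members' had a median of -0.06, against 0.00 over all measured genes. No member reached 1.5-fold in either direction, a size that 0.163% of measured genes reached downward and 0.172% upward. At least 0.1 lower were 11 members (13.2% of measured genes), and 0 were at least 0.1 higher (7.95%). Among genes at or above the 75th percentile of their array, where 54.3% were lower, 20 of 24 members were.

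**Figure D2:**
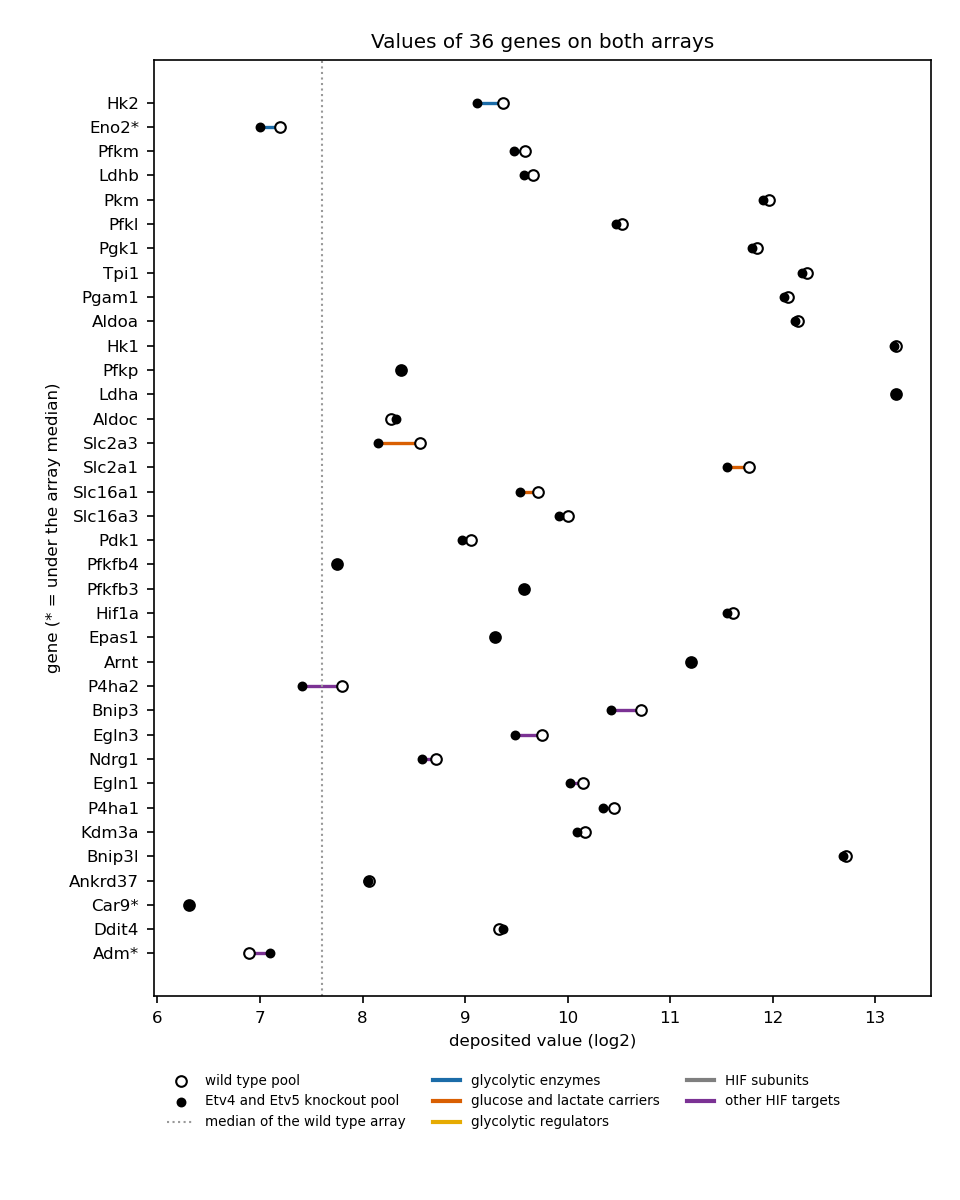
Deposited log2 values of the 36 matched genes in the wild type pool (open circles) and the knockout pool (filled circles), grouped by role, 1 array each. Slc2a3 (8.56 and 8.15) and P4ha2 (7.80 and 7.41) show the widest gaps, while Ldha and Arnt show none.

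The scale of these differences can be set against probe sets that read the same gene. For 467 genes with 2 bright probe sets of unequal values, the differences of the probe sets lay a median of 0.04 apart, with a 90th percentile of 0.17. By that measure 6 of the 33 members exceeded the 90th percentile in size (8.14% of measured genes did) and 12 lay under the median (55.3%). The 6 were Slc2a3, P4ha2, Bnip3, Egln3, Hk2 and Slc2a1, of which P4ha2 counted as measured through its wild type value alone. The gap speaks to the reading of a gene on 1 pair of arrays and not to the spread between embryos. Over all measured genes the central 95% of differences ran from -0.22 to 0.20. Below it lay 5 members, P4ha2 among them, and above it 0.

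Glucose and lactate carriers had the lowest median difference of the member roles, -0.19, with 4 of 4 lower (47.0% of measured genes were). Slc2a3, the high-affinity glucose carrier GLUT3, was at 8.56 in the wild type pool and 8.15 in the knockout pool (-0.41, 1.33-fold). Only 45 of the 11045 measured genes, itself included, had a difference that low. Slc2a1, the widely expressed glucose carrier GLUT1, was at 11.77 and 11.55 (-0.21, 1.16-fold). Among 1212 measured genes with a mean of 11 or more, where differences were narrower, 23 were as low as Slc2a1. Slc16a1, the lactate carrier MCT1, was at 9.71 and 9.54 (-0.17). Slc16a3, the lactate exporter MCT4, was at 10.01 and 9.91 (-0.09). All 4 were lower in the knockout pool, Slc2a3 by the most, while Slc2a1 (-0.21) and Slc16a1 (-0.17) lay close to each other.

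Of the regulators that set the rate or the fate of glycolysis, only Pdk1 differed by more than the median probe set gap of 0.04. Pdk1, the kinase that closes pyruvate dehydrogenase and so keeps pyruvate from the citrate cycle, was at 9.06 and 8.97 (-0.09). Pfkfb3, which makes the activator of phosphofructokinase, was at 9.58 on both arrays (0.0003). Pfkfb4, a related enzyme, was at 7.75 on both (-0.0072), close to the array median.

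Glycolytic enzymes were mostly lower by small amounts: 10 of 13 measured were lower (76.9%, against 47.0% of measured genes), 1 higher and 2 equal. Their median was -0.05. Only Hk2 and Pfkm were lower by at least 0.1, which is 15.4% of the enzymes and near the 13.2% of all measured genes. In the order of the path, the largest difference belonged to the entry step. Hk2, the hexokinase that responds to hypoxia and insulin, was at 9.37 and 9.11 (-0.25, 1.19-fold), and 194 measured genes were that low. Hk1, the constitutive hexokinase, was at 13.20 and 13.18 on the probe set the rule takes (-0.02). That probe set lists no RefSeq mRNA of Hk1, and 16 other probe sets list Hk1 together with the ribosomal gene Rpl17. Of those 16, 15 were higher in the knockout pool and 1 was equal (0.00 to 0.06), at wild type values from 12.03 to 13.30. The other probe set of Hk1, which does list its mRNA, was at 8.76 and 8.69 (-0.07). Both probe sets with Hk1 as their only symbol were slightly lower in the knockout pool, unlike those shared with Rpl17. Whether the brighter one reads Hk1 alone was not tested.

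Phosphofructokinase, the committed step, has 3 subunit genes here, which differed by unequal amounts. Pfkm, the muscle-type subunit, was at 9.59 and 9.47 (-0.11). Pfkl, the liver-type subunit, was at 10.53 and 10.48 (-0.06). Pfkp, the platelet-type subunit, was at 8.38 on both arrays. The enzymes that split and rearrange the sugar were close to each other in difference. Aldoa, the main aldolase, was at 12.25 and 12.21 (-0.03), and Tpi1, triosephosphate isomerase, at 12.34 and 12.29 (-0.05). Aldoc, the aldolase of brain, was the single enzyme that was higher, at 8.28 and 8.32 (0.04).

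The later steps followed the same small pattern. Pgk1, the first ATP-making enzyme of the path, was at 11.85 and 11.80 (-0.05), with -0.05 and -0.06 on its other 2 probe sets; it lies on the X chromosome. Pgam1, phosphoglycerate mutase, was at 12.15 and 12.11 (-0.04), and its other 2 probe sets gave -0.04 each. Pkm, pyruvate kinase, was at 11.97 and 11.90 (-0.07), while a probe set that lists no RefSeq mRNA was equal on both arrays at 11.44. Eno2, the enolase of neurons, did not count as measured, at 7.2 and 7.0 (-0.19).

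Lactate dehydrogenase closed the path without a shared direction. Ldha, the subunit that favours lactate, was exactly 13.20 on both arrays. Ldhb, the subunit that favours pyruvate, was at 9.66 and 9.58 on its brighter probe set (-0.09) and at 8.73 and 8.84 on the other (0.11). Its probe sets disagreed, so Ldhb has no settled direction here, and the mean over them was 0.01.

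**Figure D3:**
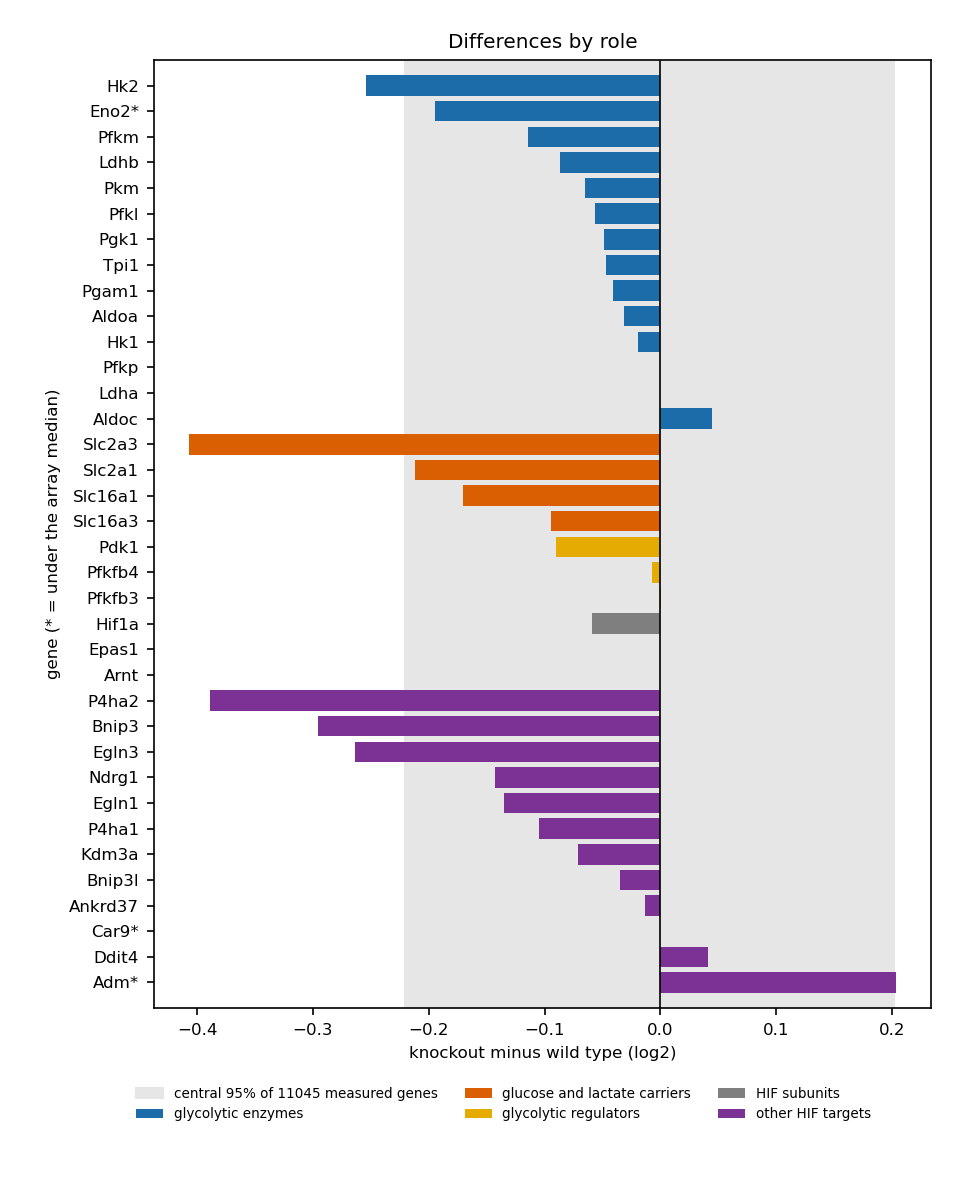
Difference between the knockout and the wild type pool (log2, bars) for each of the 36 matched genes by role; the grey band is the central 95% of 11045 measured genes (-0.22 to 0.20) and an asterisk marks genes under the array median. Bars of Slc2a3, P4ha2, Bnip3, Egln3 and Hk2 reach past the band, and Adm, which was not measured, reaches its upper edge.

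The HIF subunits themselves differed little. Hif1a, the subunit stabilised in most cell types, was at 11.62 and 11.56 (-0.06). Epas1, the HIF-2 alpha subunit prominent in endothelium, was at 9.29 on both arrays, and Arnt, the shared partner, at 11.20 on both. Of 5 further regulators of the pathway, Hif3a, Egln2 and Hif1an were equal on both arrays, Vhl differed by 0.02 and Arnt2 by -0.04. HIF is governed mainly by protein stability, which arrays do not measure.

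Other HIF targets were lower by more: of 10 measured, 9 had a lower value and 1 a higher one, their median was -0.12, and 6 were lower by at least 0.1. P4ha2, measured through its wild type value alone, is among the 9 and the 6. The hydroxylases that limit HIF are themselves HIF targets and act as feedback. Egln3 was at 9.75 and 9.49 (-0.26, 1.20-fold). Egln1, the main oxygen-sensing hydroxylase, was at 10.15 and 10.02 (-0.13). Both were lower, Egln3 by the larger amount.

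Bnip3, a mitochondrial receptor that triggers mitophagy under hypoxia, was at 10.72 and 10.42 (-0.30, 1.23-fold). Its other probe set was at 10.24 and 9.95 and gave the same difference of -0.30. Its paralogue Bnip3l, which clears mitochondria from maturing red cells among others, was at 12.72 and 12.69 (-0.03), with -0.04 on its other probe set. The members of this pair therefore differed by unequal amounts, and each by a like amount on both of its probe sets.

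The catalytic subunits of collagen prolyl hydroxylase, which stabilises the collagen helix, were lower together. P4ha2 was at 7.80 and 7.41 (-0.39, 1.31-fold), and 55 measured genes were that low. Its value in knockout lay under the array median, so the size of that difference rests on a dim signal. P4ha1 was at 10.45 and 10.35 (-0.10).

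Among the remaining targets, Ndrg1, a stress-responsive gene, was at 8.72 and 8.58 (-0.14). Kdm3a, a histone demethylase induced by hypoxia, was at 10.17 and 10.10 (-0.07). Ankrd37, an ankyrin repeat gene under HIF control, was at 8.07 and 8.05 (-0.01). Ddit4, which restrains mTOR signalling under stress, was higher, at 9.33 and 9.37 (0.04). Adm, the vasodilator peptide adrenomedullin, was at 6.89 and 7.10 (0.20), and Car9, the membrane carbonic anhydrase widely used as a hypoxia marker, at 6.31 on both arrays; neither counted as measured. Of the measured targets Ddit4 was thus the only higher one, by less than the median probe set gap.

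Set side by side, the medians were -0.05 for the 13 glycolytic enzymes and -0.12 for the 10 other HIF targets, a gap of 0.07. At least 0.1 lower were 2 of 13 enzymes (15.4%) and 6 of 10 other targets (60.0%), against 13.2% of all measured genes. P4ha2 is among the 10 and the 6, and it counted as measured through its wild type value alone, so its lower value was built in. Over the other settings tried the gap lay between 0.04 and 0.08, always with the enzymes nearer to 0. With no filter, where no gene enters by its level, the gap was 0.04. Signal level went with this gap. The central 95% of differences ran from -0.25 to 0.26 for 4390 measured genes with a mean under 9, from -0.21 to 0.14 for 5443 genes from 9 to under 11, and from -0.18 to 0.08 for 1212 genes at 11 or more. Of the enzymes 7 lay at 11 or more, and of the other targets 1 did (Bnip3l, -0.03). Hk1 is among the 7 by its probe set without a RefSeq mRNA. Its other probe set, at 8.76 and 8.69 (-0.07), would place it under 9. Between 9 and 11, where 53.6% of measured genes were lower, the 4 enzymes had a median of -0.10 and the 6 other targets one of -0.12. Under a mean of 9, where 37.2% of measured genes were lower, the 2 enzymes had a median of 0.02 and the 3 other targets one of -0.14. At 11 or more, where 52.9% of measured genes were lower, the 7 enzymes had a median of -0.04 and Bnip3l a difference of -0.03. The gap was thus narrower in the middle band and wider in the dim band, each with few genes. P4ha2 is among the 3 targets of the dim band. At 11 or more, with 1 other target, the enzymes were not nearer to 0. The part of signal level in the gap was not tested beyond these values.

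**Figure D4:**
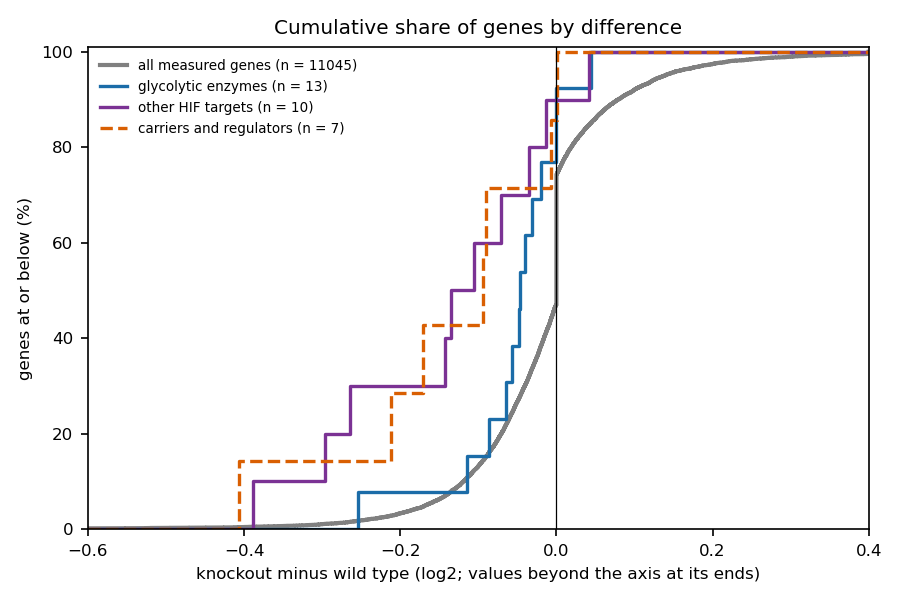
Cumulative share of measured genes (vertical axis, percent) by their log2 difference (horizontal axis) for all 11045 measured genes, 13 glycolytic enzymes, 10 other HIF targets and 7 carriers and regulators. The enzymes' line rises close to 0, around their median of -0.05, while the lines of the other targets (median -0.12) and of carriers and regulators (-0.09) rise further to the left.

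**Figure D5:**
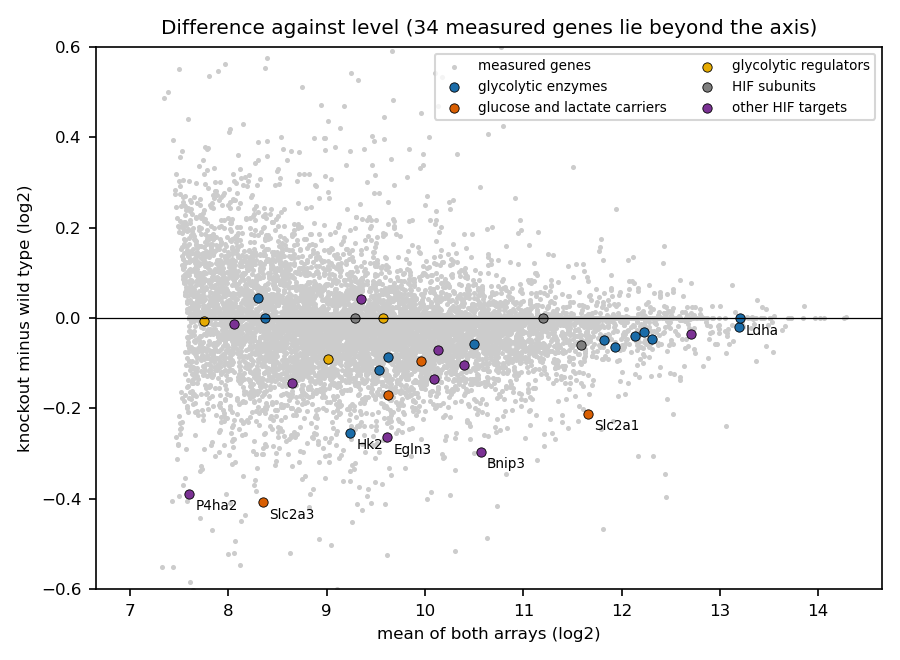
Log2 difference against the mean of both arrays for the measured genes (grey) and the 33 measured members (coloured by role); 34 measured genes lie beyond the vertical axis. The grey cloud narrows to the right, where 7 of the 13 enzymes lie at a mean of 11 or more, Hk1 by a probe set without a RefSeq mRNA.

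Neighbouring parts of metabolism were read from lists of known members. Of 30 measured further HIF targets 23 were lower (76.7%, against 47.0% of measured genes), 2 higher (25.7% of measured genes) and 5 equal. Their median was -0.06, close to that of the members. Under each of 3 other scalings 20 were lower and 10 higher, where 37.2% to 44.1% of measured genes were lower. The largest differences in that list had opposite signs: Bhlhe40, a hypoxia-induced and clock-related repressor, was at 7.76 and 8.06 (0.30), and Ak4, a mitochondrial adenylate kinase, at 10.59 and 10.32 (-0.27). Vegfa, the vessel growth factor that is a main HIF target, was at 10.69 and 10.68 (-0.02).

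Oxidative and branch paths were nearer to 0. Of all measured genes 47.0% were lower as deposited, and 39.3%, 37.2% and 44.1% with equal medians, quantile and loess scaling. Of 21 measured genes of pyruvate dehydrogenase and the citrate cycle 8 were lower, 4 higher and 9 equal, with a median of 0.00; with equal medians or quantile scaling 7 were lower and 14 higher, and with loess 8 and 13. Sucla2, a succinate-CoA ligase subunit, had the largest difference, at 10.14 and 9.97 (-0.17), followed by Sdhb, a succinate dehydrogenase subunit, at -0.09. The pentose phosphate pathway had 2 of 6 lower and 1 higher (median 0.00), but 1 lower and 5 higher with equal medians or quantile scaling and 2 and 4 with loess, with Pgls at 0.09 and Rpe at -0.08. Other isoforms of the glycolytic enzymes and kinases were mostly dim: 4 of 14 listed were measured, with Eno3, the muscle enolase, at 0.14 and Pdk3 at -0.03.

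Markers of several cell types differed between the pools along with the members. Their counts stand beside 47.0% lower, 25.7% higher and 27.3% equal over all measured genes. Counts and medians take the measured markers only, while a summed level takes every matched marker, dim ones included. In a bulk sample fewer cells of a type and less RNA per cell cannot be told apart. Smooth muscle markers were lower in 7 of 7 (median -0.22, summed level 14.06 in wild type and 13.92 in knockout, log2), with Myocd at -0.39 and Cnn1 at -0.31. Mesenchyme markers were lower in 6 of 6 measured (median -0.05, summed level 14.22 and 14.06), with Foxf1 at -0.40 and Pdgfra at -0.11. Epithelial markers were higher in 5 of 7 (median 0.12, summed level 13.48 and 13.49), with Krt18 at 0.47 and Sftpc at -1.12.

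Blood and other minor cell types were also read, and their counts stand beside the same shares over all measured genes. Summed levels again include matched markers that were too dim to count as measured. Of 8 erythroid markers 6 were matched and 3 measured, all 3 lower except under quantile scaling, where 2 were (median -0.25, summed level 12.28 and 12.06), with Slc4a1 at -0.26 and Hba-x at -0.25. Leukocyte markers were lower in 4 of 4 measured (median -0.13, summed level 11.03 and 10.91), with Mrc1 at -0.17 and Csf1r at -0.15. Endothelial markers were lower in 5 of 7 and equal in 2, but lower in 2 to 3 of 7 under other scalings (median -0.01, summed level 13.65 and 13.62), with Pecam1 at -0.08 and Tek at -0.08. Neuron markers had 2 of 6 measured, Stmn2 at -0.20 and Ret at 0.14 (summed level 9.94 and 9.90). Heart and skeletal muscle markers had 4 of 7 measured, of which 2 were lower, 1 higher and 1 equal (median -0.02, summed level 12.06 and 12.05). Their largest differences were Myl7 at -0.25 and Tnnt2 at -0.05. No marker's value is a true 0 on this scale. The part of these cell types in the members' differences was not tested. Xist and the Y-linked genes differed between the pools along with genotype. With 1 pool per group, a part of sex in the members' differences cannot be told apart from that of genotype.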

How the data were processed

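Total RNA was hybridised to Affymetrix arrays after biotin labelling, per the labels' protocols. The authors' deposited table holds 1 value for each of 35557 probe sets and array, read as log2 from a range of 2.69 to 14.4; summary method and normalization are not given in the sources used here. For 28.2% of probe sets the wild type and knockout values were identical. Symbols came from the platform annotation: 21789 probe sets had 1 symbol, 1621 several and 12147 none. With 1 array per group, values, differences, counts and medians were computed, with no p-value. The summaries were tested on simulated data.

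All 39 members were to be named, with the 2 measured genes of largest difference in each further list and any of at least 1.5-fold. Vegfa, Epcam, Nkx2-1 and Ldha's promoter were added after their values were seen. The members and lists were chosen with earlier results of these data known. Alternatives were equal medians, quantile and loess scaling (span 0.3), the probe set mean, no filter, a 75th percentile filter, a floor at the 25th percentile, leaving out equal values, moving carriers and regulators into either group and, added after seeing the data, preferring probe sets with a RefSeq mRNA. Levels were split at means of 9 and 11 after seeing the data. Python 3.11.15, pandas 2.3.3, statsmodels 0.14.6 and matplotlib 3.10.9 were used.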

Additional observations from a re-analysis of the deposited data

How the results depend on the processing

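The median difference of the members lay between -0.07 and -0.04 over all settings, that of the enzymes between -0.05 and -0.03, that of the other HIF targets between -0.12 and -0.09 and that of carriers and regulators between -0.13 and -0.07, so each stayed below 0. The measured members with exactly equal values (Ldha, Pfkp, Arnt and Epas1) took small positive ones under the other scalings. The members' split of 26 lower and 3 higher became 24 and 9 with equal medians and 26 and 7 with quantile or loess scaling. Over all measured genes 47.0% lower and 25.7% higher (2836 genes) became 39.3% and 60.7% (6713) with equal medians, 37.2% and 62.6% (6922) with quantile and 44.1% and 55.9% (6170) with loess scaling. Higher enzymes, 1 as deposited, numbered 3 under each of these scalings, 2 with the probe set mean and 0 with the 75th percentile filter, and enzymes at least 0.1 lower, 2 as deposited, numbered 1 under each scaling. Higher other targets, 1 as deposited, numbered 2 with equal medians and with no filter. Higher carriers and regulators, 1 as deposited, numbered 2 with equal medians, and lower ones, 6 as deposited, numbered 3 with the 75th percentile filter, which tests fewer genes. Ankrd37, Pfkfb4, Ldhb and Car9 took both signs over the settings. Of the other lists, the citrate cycle and pentose phosphate medians turned from 0.00 to 0.02, 0.02 and 0.01 and to 0.02, 0.03 and 0.02 with equal medians, quantile and loess scaling. In the same order, the endothelial median turned from -0.0127 to 0.0047, 0.0009 and 0.003. Medians of the HIF subunits and of the further pathway regulators turned from 0.00 to 0.02 under each scaling. That of the glycolytic regulators turned from -0.0072 to 0.0102 with equal medians only. Neither array can be left out. No paired analysis was possible because each group has 1 array. A move counted as small under the median probe set gap of 0.04. Dim signal limits P4ha2, Adm, Car9, Eno2 and Etv4.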

Other observations

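Enzymes that mature collagen formed a group among the HIF targets that was put together after the values were seen, so it is a description only. Besides P4ha1 and P4ha2, the lysyl hydroxylase genes Plod2, at 10.10 in wild type and 9.90 in knockout (-0.20), and Plod1, at 10.41 and 10.34 (-0.07), were lower in the knockout pool. P4hb, the partner subunit of the prolyl hydroxylases, was exactly 11.92 on both arrays, and Lox, which crosslinks collagen, was at 11.44 on both (-0.0040). Ero1l, the oxidase that reloads P4hb's family in the endoplasmic reticulum, was at 10.37 and 10.15 (-0.22). Among genes of glycogen metabolism, chosen in the same way, Gys1 differed by -0.07, Gbe1 by -0.07 and Pgm1 by -0.13, while Ppp1r3c was equal on both arrays. Pgm2, a gene related to Pgm1 but not placed in that group, differed by -0.14. Tmem45a, another hypoxia-induced gene of the list, was at 9.50 and 9.26 (-0.24).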
